A study of Mus musculus with 5 samples.

Results

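Antioxidant enzymes were followed as a group of 10 genes, chosen with earlier results of these data known: the glutathione peroxidases Gpx1, Gpx2, Gpx3 and Gpx4, the superoxide dismutases Sod1, Sod2 and Sod3, catalase (Cat), and the peroxiredoxins Prdx1 and Prdx6. A gene was measured where a probe set, the unit of the array, was annotated to it alone, and it was represented by its probe set with the highest mean signal over the arrays. This gave 8 measured genes of 12393 on the array, with 14 probe sets between them. All 5 probe sets that list Prdx1 also list a second gene, so none was read as Prdx1, and none was annotated to Prdx6 in the table used here.

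The study mixed 2 pools of total RNA from C57BL/6 mice, one from whole pups killed on day 1 and one from the colon of adults aged 8 weeks. Each pool combined several animals. Colon made up 0%, 25%, 50%, 75% or 100% of the RNA, and 10 ng of each mix was amplified in 2 rounds by T7 transcription and hybridised to 1 Affymetrix MOE430 array. There were thus 5 arrays and no replicate of any mix, and the pools differ in age as well as in tissue. Signals are the authors' RMA values on a log2 scale, on which 1 unit is a 2-fold difference, and they are given below in order of rising colon share. The whole pup also contains its own gut, so the contrast is adult colon against all newborn tissues together.

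Superoxide dismutases turn superoxide into hydrogen peroxide, and catalase, glutathione peroxidases and peroxiredoxins remove the peroxide. Sod1 works mainly in the cytosol, Sod2 in mitochondria and Sod3 outside the cell, while catalase sits in peroxisomes. Gpx1 to Gpx4 carry selenocysteine and differ in place: Gpx1 is found in most cells, Gpx2 mainly in the epithelium of the gut, Gpx3 is secreted into plasma largely by the kidney, and Gpx4 repairs oxidised membrane lipids.

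The array medians lay between 6.83 and 6.92. The labels were checked against marker genes. Colon epithelium, with 11 markers measured, had a median of 7.49 in whole mouse and 11.60 in colon, and 3 of them rose and none fell. Liver, with 10 markers measured, had 12.69 and 5.88, with 5 falling and none rising. Fitted changes were called at a limma adjusted p under 0.05 (Benjamini-Hochberg over 22626 probe sets), and "rose" and "fell" are used only of these. Of all 12393 genes, 9.80% rose and 14.5% fell. The fit is a straight line on the log2 scale, so a gene not called can still differ widely between the undiluted arrays.

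Sequence upstream of the start is shown for Gpx2 and Gpx3, whose undiluted signals were 2-fold or more apart, and for Sod1, the measured member with the largest positive slope after Gpx2. Each is the 250 bases before the annotated start from RefSeq's GRCm38.p6, written 5′ to 3′ on the gene's strand. Capitals mark matches, on either strand, to 4 motifs. The first, TGACNNNGC, is the core of the antioxidant response element, to which the factor NRF2 binds. The second, GGGCGG, is the box recognised by factors of the Sp family at many broadly used promoters. The third, TATAAA, is the box that positions the start of transcription. The last, TTTATGG, is a site of the type to which the intestinal CDX factors bind.
Gpx2 (chr12:76795555-76795804, minus strand): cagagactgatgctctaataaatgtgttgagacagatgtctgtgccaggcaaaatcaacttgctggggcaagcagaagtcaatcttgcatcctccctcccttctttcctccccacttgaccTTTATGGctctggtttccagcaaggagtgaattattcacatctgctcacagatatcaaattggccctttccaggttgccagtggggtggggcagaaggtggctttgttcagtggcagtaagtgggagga
Gpx3 (chr11:54902604-54902853, plus strand): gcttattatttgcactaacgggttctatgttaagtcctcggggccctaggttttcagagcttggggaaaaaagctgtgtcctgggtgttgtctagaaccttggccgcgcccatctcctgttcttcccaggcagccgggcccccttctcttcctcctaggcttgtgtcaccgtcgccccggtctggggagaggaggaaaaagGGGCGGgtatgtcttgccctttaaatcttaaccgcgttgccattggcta
Sod1 (chr16:90220512-90220761, plus strand): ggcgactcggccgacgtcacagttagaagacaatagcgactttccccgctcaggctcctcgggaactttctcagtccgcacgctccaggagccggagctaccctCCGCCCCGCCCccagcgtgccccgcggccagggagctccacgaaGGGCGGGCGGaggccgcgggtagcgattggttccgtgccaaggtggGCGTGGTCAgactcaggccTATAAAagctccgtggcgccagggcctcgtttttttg
The Gpx2 window held TTTATGG from 129 to 123 bases before the start and none of the other 3 motifs. TTTATGG was present in 2.43% of 32851 promoters of this length. The Gpx3 window held 1 GC box, at 49 to 44 bases before the start. Sod1 held the antioxidant response element core on the opposite strand (56 to 48 bases before the start), a TATA box at 37 to 32 bases, and 4 GC box matches that overlap in pairs. TGACNNNGC occurred in 10.2% of all promoters, GGGCGG in 32.7% and TATAAA in 12.4%. Promoters were matched for 7 of the 8 measured members, 10 windows in all since Gpx4 has several starts. GGGCGG was found in windows of 5 members, Gpx3, Gpx4, Sod1, Sod2 and Cat, while TGACNNNGC was found in that of Sod1 and TTTATGG in that of Gpx2. A match is a description of these letters and does not show that a factor binds there.

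The members had fitted slopes of both signs, 3 positive and 5 negative. The Gpx2 signal was 13.1 times higher in colon than in whole mouse and that of Gpx3 was 2.92 times higher in whole mouse than in colon, while Gpx1, Sod2 and Sod3 spanned at most 0.24 log2 over the 5 arrays. Gpx2 and Gpx3 were the 2 of 8 members with undiluted signals 2-fold or more apart, against 19.6% of all genes (9.26% higher in colon and 10.4% in whole mouse). Of the 8 genes, 1 fell (Gpx3) and none rose, against 14.5% of all 12393 genes that fell, 9.80% that rose and 24.3% called in either direction. At an unadjusted limma p under 0.05 there were 4 members (Gpx2, Gpx3, Sod1 and Cat), against 41.3% of all genes. The median fitted slope of the 8 was -0.10 log2 from whole mouse to colon, and that of all genes -0.01. The 5 values spanned under 0.5 log2 in 4 members (Gpx1, Gpx4, Sod2 and Sod3), as they did in 50.2% of all genes. In a bulk RNA pool, fewer cells of a type and less RNA per cell cannot be told apart.

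**Figure D1:**
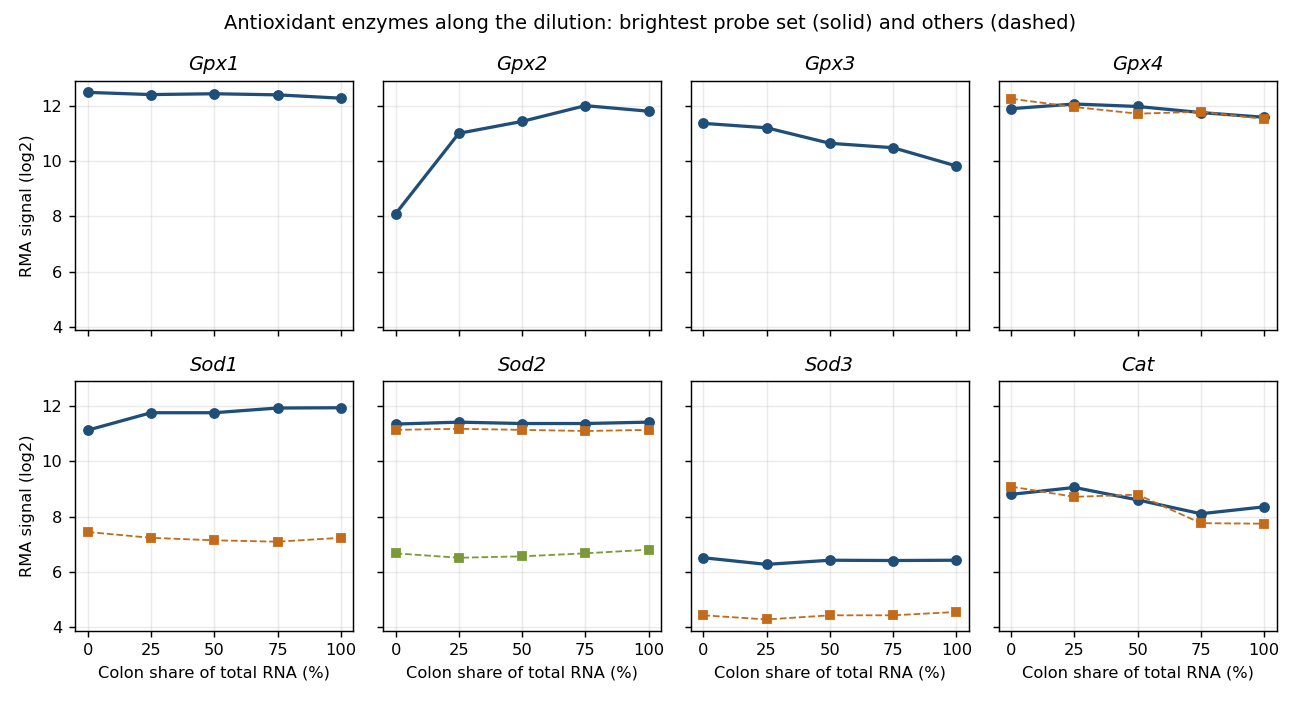
RMA signal (log2, vertical axis) against the colon share of total RNA (percent, horizontal axis) for the 8 measured genes, 1 array per point, with the brightest probe set solid and the others dashed. Gpx2 climbs from 8.09 to 11.80 with most of the step before 25% colon, Gpx3 declines from 11.36 to 9.82, and the solid lines of Gpx1, Sod2 and Sod3 are nearly level.

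Gpx2, the epithelial peroxidase of the gut, had signals of 8.09, 11.00, 11.43, 12.00 and 11.80. The whole mouse array was the low one, and the 75% mixture lay above undiluted colon. The difference between the undiluted RNAs was 3.71 log2, and only 80 of the other genes had a larger one toward colon. The fitted slope was 3.37 log2 (SE 1.01, 95% interval 0.78 to 5.96), with a limma adjusted p of 0.0783, so the gene did not pass along a straight line on the log2 scale. It passed with the arrays centred on their medians (adjusted p = 0.0469). It also passed when linear intensities, each divided by the probe set's mean, were regressed (adjusted p = 0.0188). This fit was added after the values were seen, and in it 29.4% of all genes passed and 13.6% rose. Without the whole mouse array the slope was 1.19 log2.

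On the linear scale the bend of Gpx2 can be read directly. Its intensity was 272 in whole mouse, 2045 at 25% colon, 2757 at 50%, 4086 at 75% and 3566 in colon. A weighted mean of the undiluted arrays would have given a log2 signal of 10.10 at 25% colon, and the measured one was higher by 0.90. The 50% and 75% mixtures were higher by 0.52 and 0.58. In terms of the distance from whole mouse to colon, the 3 mixtures stood at 53.8%, 75.4% and 116%. The median positions of 1853 probe sets at least 2-fold higher in colon were 43.1%, 62.6% and 73.2%. At 25% colon the position of Gpx2 was reached or passed by 405 of these (21.9%). At 75% colon its 116% lay above their upper quartile of 87.4%. The deviations of these probe sets from linear mixing had medians of 0.33 log2 (SD 0.27), 0.17 (SD 0.22) and -0.02 (SD 0.23), below the 0.90, 0.52 and 0.58 of Gpx2. These probe sets needed only a 2-fold difference, while Gpx2 had a 13.1-fold one. Deviations of genes with a like fold were not compared, so whether the bend is particular to Gpx2 was not tested. An early step was also seen in the summed intensity of 11 colon epithelium markers (6050, 52300, 62800, 66000 and 72900).

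Gpx3, the plasma peroxidase, had 11.36, 11.20, 10.64, 10.48 and 9.82, falling at every step. Such a strict order held in this member alone, against 20.7% of all genes. It fell by 1.53 log2 (SE 0.17, 95% interval -1.97 to -1.08, limma adjusted p = 0.00913). Without the colon array the slope was -1.29 and the adjusted p 0.0647. Without any other single array the adjusted p was at most 0.043. Intensities of 2635, 2354, 1593, 1427 and 902 gave mixture positions of 16.2%, 60.1% and 69.7%, within 0.15 log2 of linear mixing at each share. Among 1763 probe sets at least 2-fold higher in whole mouse, the median positions were 35.9%, 62.7% and 80.6%.

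**Figure D2:**
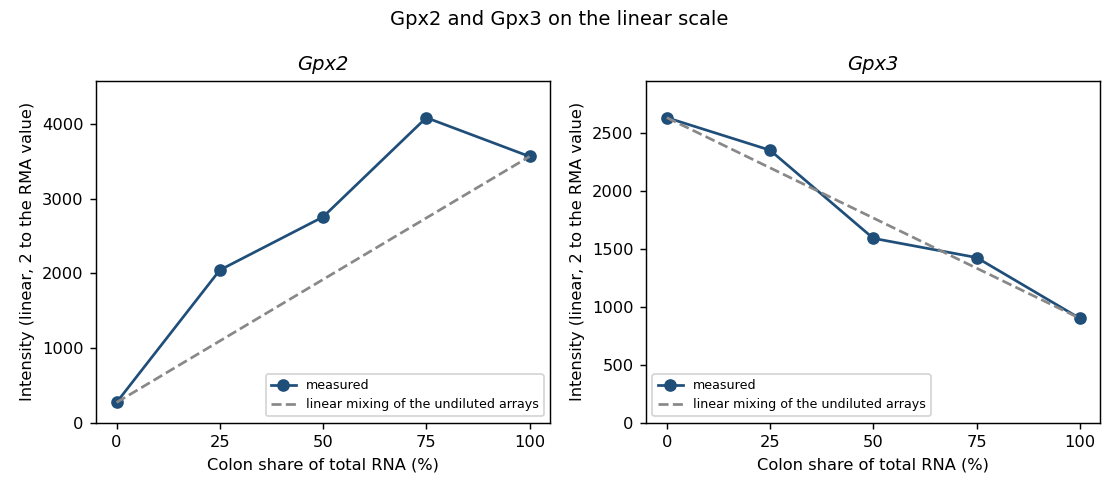
Intensity on the linear scale (vertical axis, 2 raised to the RMA value) against the colon share (percent) for Gpx2 and Gpx3, with the dashed line joining the undiluted arrays. All 3 mixtures of Gpx2 lie above the line, while those of Gpx3 lie within 0.15 log2 of it.

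Markers of tissues that differ between the pools were read as well, where 14.5% of all genes fell and 9.80% rose. For kidney tubule, 5 of 10 markers fell and none rose, their summed intensity going from 1980 in whole mouse to 917 in colon. Among them Cdh16, a kidney cadherin, fell by 2.12 log2 and Cubn, the cubilin receptor of the proximal tubule, by 1.70. For fat, 5 of 6 fell (summed intensity 15300 to 2480). For liver 5 of 10 fell, and the sum went from 70000 to 1660. With 3 of 11 markers rising, the colon epithelium sum went from 6050 to 72900 and had reached 52300 at 25% colon, and the smooth muscle sum went from 14300 to 35100, with 3 of 8 markers rising. Skeletal and heart muscle (7 of 10 fell, 60400 to 874), epidermis (3 of 8, 38900 to 843), lung epithelium (4 of 7, 11400 to 607) and erythroid cells (5 of 6, 3660 to 315) were lower in colon too, with no rise. Among 9 leukocyte markers 1 rose and 3 fell (6600 to 3260). Markers far apart between the pools could miss the call, as Alb of liver did with 13.70 and 6.48 (limma adjusted p = 0.136). With linear intensities 10 of 10 liver and 10 of 10 skeletal and heart muscle markers passed, against 29.4% of all genes. Passing too were 7 of 8 epidermis, 8 of 11 colon epithelium and 7 of 8 smooth muscle markers. The counts were 6 of 10 for kidney tubule, 5 of 7 for lung epithelium and 4 of 9 for leukocytes. Fat and erythroid stayed at 5 of 6 each. Array signals have no true zero, the lowest value of any marker being 3.40. The part of any of these tissues in the values of Gpx2 and Gpx3 was not tested.

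Gpx1, the peroxidase of most cells, hardly varied, with 12.48, 12.40, 12.43, 12.39 and 12.27. Its slope was -0.17 log2 (95% interval -0.43 to 0.09, limma adjusted p = 0.322). Gpx4, which protects membrane lipids, was read by a pair of probe sets with almost the same mean signal (11.85 and 11.84). The brighter gave 11.89, 12.06, 11.97, 11.75 and 11.58, with a slope of -0.37 (limma adjusted p = 0.191). The other gave 12.25, 11.95, 11.71, 11.78 and 11.52 and fell by 0.65 log2 (SE 0.14, limma adjusted p = 0.0381). Both had their lowest value in colon. The name of the second ends in x_at, which marks probes that can also match other transcripts, and its call was lost without any one of the 5 arrays (adjusted p from 0.063 to 0.178). The mean of both probe sets had a slope of -0.51 (limma adjusted p = 0.0213).

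Slopes within a family were compared by the difference of the log2 signals on each array, with an exact two-sided permutation over the orders of the 5 arrays. The smallest p this allows is 0.0167, and 9 pairs were adjusted together (6 of Gpx and 3 of Sod). Gpx2 exceeded Gpx3 by 4.89 log2 from whole mouse to colon, Gpx1 by 3.54 and Gpx4 by 3.74. Gpx1 exceeded Gpx3 by 1.36, and Gpx4 exceeded Gpx3 by 1.16. Each of these 5 pairs, with that of Sod1 and Sod2 (0.68), had an exact p of 0.0167 or 0.0333. Their adjusted p was 0.05, which is at the threshold and not below it, so 0 of 9 pairs passed and 6 had an unadjusted p under 0.05. Of these 6 pairs, 5 hold Gpx2 or Gpx3, so they share profiles and are not independent. With the mean of all probe sets of each gene, 4 Gpx pairs passed (Gpx3 against each of the other 3 and Gpx2 against Gpx4, exact adjusted p = 0.0375). Gpx1, Gpx2 and Gpx3 have 1 probe set each, so their own pairs kept the same differences and exact p. The adjusted p of Gpx3 against Gpx1 and Gpx2 moved only because exact p-values of Gpx4 pairs changed in the same adjustment. Gpx1 and Gpx4 differed by 0.20 with the brightest probe sets (exact p = 0.35). With the mean of all probe sets they differed by 0.34 (exact p = 0.0333, exact adjusted p = 0.05).

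Sod1, the cytosolic dismutase, had 11.13, 11.76, 11.76, 11.93 and 11.94 in its brighter probe set. The whole mouse array was the low one, and the 25% and 50% mixtures were tied. Colon was 1.75 times higher than whole mouse, and the slope was 0.71 log2 (SE 0.22, 95% interval 0.15 to 1.27, limma adjusted p = 0.0817). With arrays centred on their medians the adjusted p was 0.0401. Without the whole mouse array the slope was 0.28. The other probe set of Sod1, much dimmer at 7.10 to 7.45, had a slope of -0.23 (95% interval -0.60 to 0.15, limma adjusted p = 0.353). The fitted slopes of the gene's probe sets thus differed in sign, but the interval of the dimmer one spanned both signs. The mean of both probe sets had a slope of 0.24.

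Sod2, the mitochondrial dismutase, had the smallest span of the 8 members. Its brightest probe set lay between 11.35 and 11.42, a span of 0.08 log2, and its second between 11.10 and 11.18. The third, much dimmer, lay between 6.52 and 6.81. The slope of the brightest was 0.04 (95% interval -0.21 to 0.29, limma adjusted p = 0.833). Sod3, the extracellular enzyme, was dim, with 6.52, 6.28, 6.43, 6.42 and 6.43, below the array medians on every array. Its second probe set lay between 4.29 and 4.56. The slope was -0.02 (95% interval -0.36 to 0.33, limma adjusted p = 0.956). Sod1 exceeded Sod3 in slope by 0.73 (exact p = 0.117) and Sod2 exceeded it by 0.06 (exact p = 0.867).

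Catalase was lower at high colon shares. The brighter probe set had 8.81, 9.06, 8.61, 8.11 and 8.36, and the other 9.09, 8.72, 8.80, 7.77 and 7.75. In both, the 75% mixture and colon were the lowest arrays. The brighter had a slope of -0.74 log2 (SE 0.28, limma adjusted p = 0.133), and the other fell by 1.45 (SE 0.29, limma adjusted p = 0.0308). The call of the latter remained without the 50% mixture (0.0392) and was lost without any other single array (0.0722 to 0.151). The mean of both had a slope of -1.10 (limma adjusted p = 0.0265). Over all 14 probe sets, 3 fell (Gpx3 and the less bright ones of Gpx4 and Cat) and none rose, against 10.9% and 8.63% of all 22626 probe sets, 19.5% being called in either direction. When all arrays were centred on their medians the 1953 rises and 2456 falls over the array became 3148 and 2325, and the member calls became 2 rises (Gpx2 and Sod1) and 1 fall (Gpx3).

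**Figure D3:**
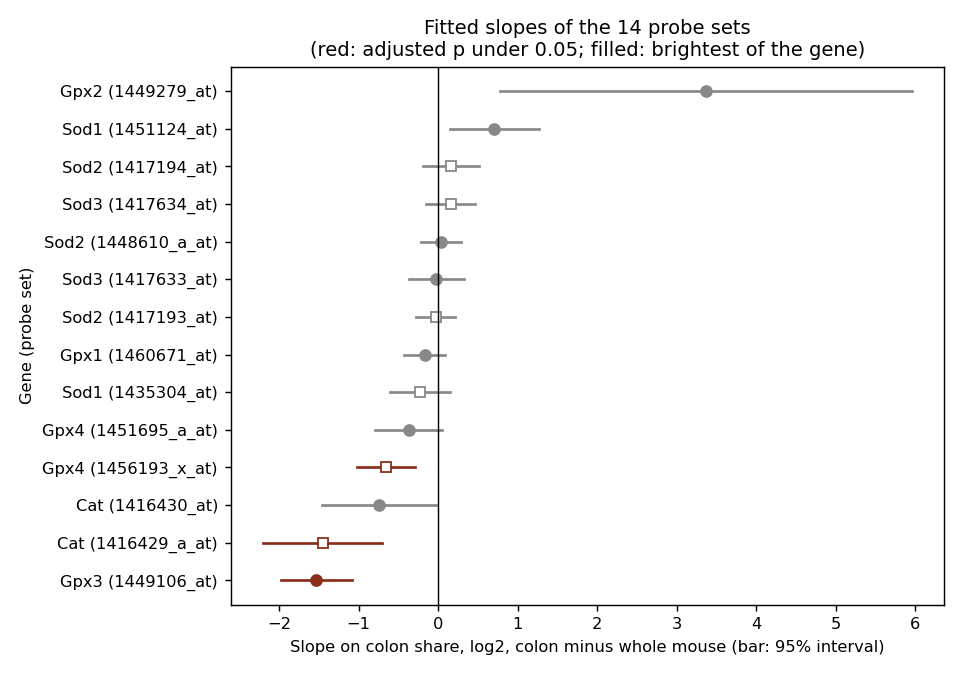
Fitted slope from whole mouse to colon (log2, horizontal axis) with its 95% interval for the 14 probe sets (vertical axis), filled circles for the brightest of each gene and open squares for the others. The 3 red ones, of Gpx3, Cat and Gpx4, have an adjusted p under 0.05; Gpx2 has the largest slope (3.37) and the widest interval (0.78 to 5.96).

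For the members spanning at least 1 log2 unit, Gpx2 and Gpx3, the 2 nearest genes were found by the root mean square distance of centred log2 profiles over the 5 arrays. Nearest to Gpx2 were Mettl7b, a methyltransferase-like protein (distance 0.07, with 8.46, 11.26, 11.78, 12.18 and 12.09), and Slc13a2, the sodium-coupled citrate and succinate transporter (distance 0.08). The median distance of the other genes was 1.45. Both had a 75% mixture above colon, as Gpx2 did, and neither passed (limma adjusted p = 0.077 and 0.0647). Nearest to Gpx3 were C8g, a chain of complement C8 made in liver (distance 0.02), and Kyat3, a kynurenine aminotransferase (distance 0.04). C8g fell by 1.54 log2 (limma adjusted p = 0.00934) and Kyat3 fell by 1.58 (adjusted p = 0.00957). The median distance of the other genes from Gpx3 was 0.57. All of these genes were picked for a like profile on the same arrays, so their likeness to Gpx2 or Gpx3 is no separate evidence.

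Other genes of the pathway were taken from 9 lists, in which 121 of 148 genes were measured. Of these 25 rose and 21 fell, with a median slope of 0.00 log2, while 9.80% of all genes rose and 14.5% fell. Glutathione peroxidases draw on glutathione, and of 12 genes of its synthesis, recycling and glutaredoxins 6 rose and 2 fell (median 0.46), against the same shares. Gss, glutathione synthase, rose by 1.34 log2 (8.85 to 10.16, limma adjusted p = 0.0269). Gsr, which regenerates glutathione from its oxidised form, rose by 1.21, and Gclc, the catalytic subunit of the rate-limiting ligase, by 1.19. The other rises, named after their values were seen, were those of Gclm, the ligase's modifier subunit (1.13), Hagh (0.87) and the glutaredoxin Glrx (0.68). The falls, also named after their values were seen, were those of Slc3a2 (-0.92), a heavy chain of amino acid transporters, and Oplah (-0.73). Glo1, the glyoxalase, stayed between 9.77 and 9.79 (adjusted p = 1).

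NRF2 is the transcription factor that switches on many antioxidant genes, and its own transcript, Nfe2l2, had 8.95, 10.46, 11.22, 11.13 and 11.62. It rose by 2.40 log2 (SE 0.52, limma adjusted p = 0.0376). Of 19 genes in the list of NRF2 and its targets, 6 rose and 1 fell (median 0.54), against 9.80% and 14.5% of all genes. The aldo-keto reductase Akr1b8 rose by 2.32 and the carbonyl reductase Cbr3 by 1.82. Nqo1, the quinone reductase often used as a readout of NRF2, rose by 1.68 (6.73 to 8.73, adjusted p = 0.0359), and Cbr1 (1.36) and the metallothionein Mt1 (0.61) also rose; these 3 were named after their values were seen, as was the fall of Mafg (-0.81), a partner of NRF2 on DNA. Fth1, the ferritin heavy chain, had 12.72 and 13.34 (adjusted p = 0.111). Haem oxygenase Hmox1, also named after its values were seen, lay between 6.10 and 6.44 (adjusted p = 0.282).

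The thioredoxin system, which reduces peroxiredoxins, had 2 rises and 2 falls among 12 genes (median 0.43), against 9.80% and 14.5% of all genes. The methionine sulfoxide reductase Msra rose by 0.90 and Msrb2, named after its values were seen, by 0.45. Nucleoredoxin (Nxn) fell by 1.36 and the mitochondrial thioredoxin reductase Txnrd2 by 0.76. Txn1, thioredoxin itself, had 12.14 in whole mouse and 13.18 in colon (limma adjusted p = 0.076). Of 10 genes of NADPH supply, 2 rose and 3 fell, against the same shares. The malic enzyme Me2 rose by 2.15 log2, the reticular hexose-6-phosphate dehydrogenase H6pd fell by 1.5 and the mitochondrial isocitrate dehydrogenase Idh2 by 1.05. Another malic enzyme, Me1, named after its values were seen, had 8.58 and 8.32 (limma adjusted p = 0.339). Which cofactor Me2 uses was not measured, so its rise is not a measure of NADPH made. Tkt, transketolase, had 11.95 and 12.37 (adjusted p = 0.169). Named after their values were seen, Pgd of the pentose phosphate pathway rose by 0.68 and Pgls of the same pathway fell by 0.75.

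Among 13 other peroxidases and helpers 4 fell and 1 rose (median -0.32), where 14.5% and 9.80% of all genes did. Gpx7 and Gpx8, peroxidases of the endoplasmic reticulum, fell by 2.13 (8.83 to 6.66, limma adjusted p = 0.00393) and 1.05. Srxn1, sulfiredoxin, which restores oxidised peroxiredoxins, rose by 1.42 in its brightest probe set (0.29 in the lowest of 4). Prdx4 (-0.89, and 0.04 in the highest of 3 probe sets) and the sestrin Sesn1 (-0.77) were the other falls, named after their values were seen. Prdx2 had 11.65 and 11.13 (adjusted p = 0.141).

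Gpx1 to Gpx4 need selenium for their active site. Of 10 genes of selenium transport and selenoprotein synthesis, 0 passed by limma in either direction, against 24.3% of all genes. An unadjusted p under 0.05 was found for 3, against 41.3% of all genes. The lowest adjusted p was 0.091, and 0 passed with a trended and robust eBayes or with linear intensities. These counts use the brightest probe set of each gene. Steeper probe sets were those of Lrp2 (-0.91 against -0.42) and Sephs2 (-0.42 against -0.22), named after their values were seen. Lrp2 was dim, with a mean of 4.41. Selenop, the selenium carrier of plasma, lay between 12.49 and 12.83 (adjusted p = 0.831). Among 11 other selenoproteins 1 rose and 2 fell, against 9.80% and 14.5% of all genes. Dio1, a deiodinase of thyroid hormone, rose by 3.50 log2 (6.17 to 10.09), while Selenon fell by 1.23 and Selenoh by 0.82. Selenos had 10.40 and 11.22 (adjusted p = 0.0708).

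Of 15 enzymes and cofactors that make oxidants, 3 rose and 3 fell, where 9.80% and 14.5% of all genes did. Noxo1, the organiser of the colon's NADPH oxidase, rose by 2.57 log2 (7.67, 9.36, 9.98, 10.46 and 10.33, limma adjusted p = 0.0437) and xanthine dehydrogenase (Xdh) by 1.59. Myeloperoxidase (Mpo), a granule enzyme of neutrophils, fell by 2.72. Duoxa2 (0.76), Nos3 (-1.13) and Ncf4 (-0.91), named after their values were seen, made up the rest. Monoamine oxidase Maoa had 8.55, 11.84, 12.46, 12.61 and 12.58 (adjusted p = 0.102). Of 19 peroxisomal oxidases and assembly genes, the setting of catalase, 4 rose and 4 fell (median -0.25), against the same shares. Urate oxidase (Uox) fell by 1.89 and the liver glycolate oxidase Hao1 by 1.42, while the assembly gene Pex11a rose by 1.45. Hao2, a hydroxyacid oxidase, had 7.61, 10.99, 11.65, 11.94 and 12.11 (adjusted p = 0.0714). The other calls, named after their values were seen, were the rises of Pex7 (1.28), Pex2 (0.98) and Abcd3 (0.80) and the falls of Dao (-1.15) and Pex19 (-0.95).

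**Figure D4:**
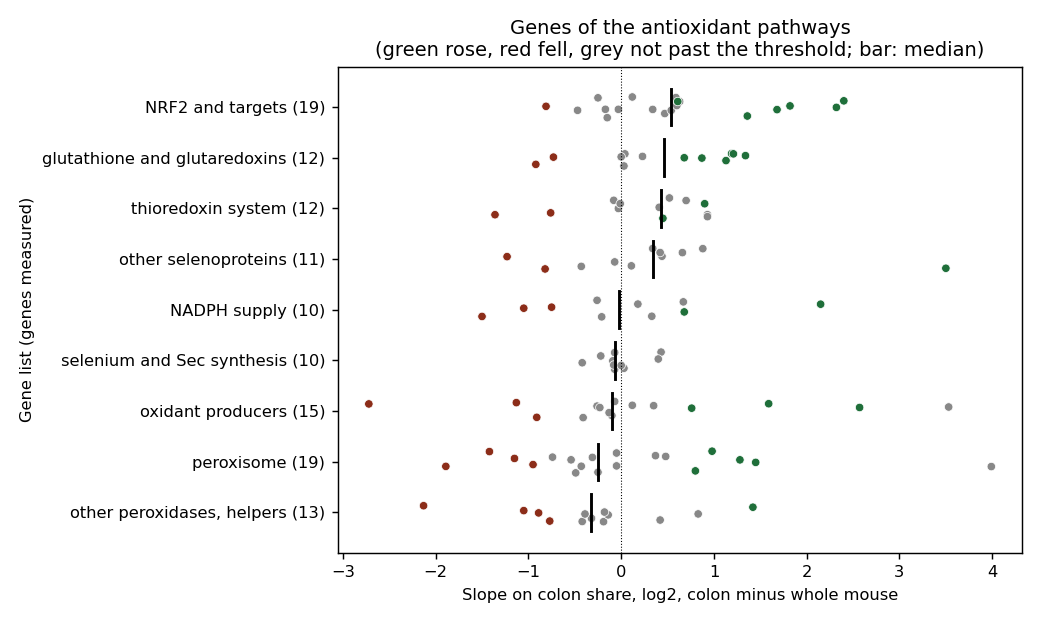
Fitted slopes (log2, horizontal axis) of 121 genes in the 9 lists (vertical axis), 1 point a gene, with the median of each list as a bar. The medians run from -0.32 for other peroxidases to 0.54 for NRF2 and its targets, and none of the 10 selenium genes is past the threshold.

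Fewer of these list calls passed when an array was left out. Of the 46 genes called, 5 passed without the colon array, 10 without the 75% mixture, 12 without whole mouse, 18 without the 50% mixture and 31 without the 25% mixture. None changed direction in these fits, each of which had fewer arrays and residual degrees of freedom. Gpx7, Mpo and Uox, all lower in colon, passed in each, whereas 9 genes, among them Nfe2l2, Noxo1, Srxn1 and Pex11a, passed in none. Of the 6 rises of the glutathione list, 0 passed without the whole mouse array, the 50% mixture or the 75% mixture, 1 without colon and 5 without the 25% mixture. Of the 6 rises of the NRF2 list, 0 passed without the 75% mixture or colon, 1 without the 50% mixture, 3 without whole mouse and 4 without the 25% mixture. The NRF2 list counted 10 rises with the arrays centred on their medians, a setting in which rises over all probe sets went from 1953 to 3148. In the same setting the thioredoxin list went from 2 rises to 5 and the other selenoproteins from 1 to 4. With linear intensities all 46 passed in the same direction.

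Several of the list genes named above had other probe sets whose slopes differed by about 1.5 times or more from that of the probe set used. Among genes that rose, the lowest slope was 0.50 for Pex11a and 0.22 for Hagh, while the other probe set of Glrx had 1.02. Among genes that fell, the highest slope was -0.40 for Nxn, -0.16 for Mafg, -0.33 for Txnrd2, -0.31 for Pex19, -0.44 for Sesn1 and -1.13 for the marker Cubn. Among genes that were not called, the slopes of Glo1 reached 0.60 and those of Tkt 0.71, and the other probe set of Txn1 had 0.45 and that of Fth1 0.28.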

How the data were processed

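Per the submitters' processing notes and the series title, the authors deposited log2 signals made with RMA, which corrects background, normalizes between arrays by quantiles and summarises probes by median polish. Neither the labels nor the file header name a version. Ties between arrays are left by such summaries and occurred in 9158 of 22626 probe sets. The 64 control probe sets were left out.

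Of the probe sets tested, 20380 list 1 gene, 691 several and 1555 none. Symbols were updated by gene identifier against RefSeq's GRCm38.p6, in which 20351 probe sets matched. The log2 signal was regressed on colon share (0 to 1) with limma 3.58.1 in R 4.3.3 (eBayes, 3 residual degrees of freedom, no filter on signal). P-values are two-sided, Benjamini-Hochberg adjusted over all probe sets. They measure technical spread and any bend of the log2 signals, not the spread between mice. Both the fit and the permutation test were tested on simulated data with straight slopes or none. Bends of the log2 signal were not simulated. The PRDX pair planned for the slope comparison was not run, since neither peroxiredoxin was measured.

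Alternatives were array centring, an offset of 64, a minimum mean of 6, a trended and robust eBayes, the mean of a gene's probe sets and leaving out each array. A fit of linear intensity divided by the probe set's mean, called linear intensities above and below, was added after the values were seen. Members and lists were chosen with earlier results of these data known. From each list the text names the 3 called genes with the largest slope and the brightest gene not called, and it says where others are named.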

Additional observations from a re-analysis of the deposited data

How the results depend on the processing

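No paired analysis was possible because the labels give no replicate numbers and each mix had 1 array. The 4409 calls over all probe sets ran from 997 to 2998 when an array was left out, with fewer residual degrees of freedom each time. The number of members called was 1, and it ran from 0 (without the colon array) to 1 when an array was left out. It was 3 with arrays centred on their medians (Gpx2, Gpx3 and Sod1), 2 with linear intensities (Gpx2 and Gpx3) and 3 with the mean of all probe sets of a gene (Gpx3, Gpx4 and Cat), the cause not being tested. The pairs that passed went from 0 to 4 with the mean of all probe sets. Among the Gpx genes only Gpx4 has a second probe set, so values of pairs without it did not change. A pair test on 4 arrays cannot pass its threshold and was not run. Of 88 member slopes recomputed, 78 kept direction and side of the threshold. The slope of Sod3 turned from -0.02 to 0.067 with centred arrays, 0.071 with the mean of its probe sets and 0.18 without whole mouse, and that of Sod2 turned to -0.0012 without whole mouse. Leaving out single arrays gave slopes from -0.098 to 0.18 for Sod3 and from -0.0012 to 0.066 for Sod2. Each reversed value had an adjusted p of at least 0.395. With 1 array per mix, the number of arrays limits the precision, and the dim probe sets of Sod3 limit what could be seen there.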
